A study of Mus musculus with 16 samples.

Results

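The proteasome is the protease that removes ubiquitin-tagged proteins, and its genes were taken here as all protein-coding mouse genes whose symbol starts with Psma, Psmb, Psmc, Psmd or Psme followed by a number. The rule found 45 genes among the 46078 in the count table, and 44 of them encode a part, an assembly factor or an activator of the proteasome. The other, Psmc3ip, meets the rule by its name but encodes a meiotic recombination factor and not a subunit. After removal of genes with low counts, 43 members were among the 12910 genes tested.

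Messenger RNA was sequenced from the livers of 16 C57BL/6 mice aged 22 weeks, with 4 animals and 4 libraries in each of 4 groups. All groups carried diet-induced obesity and hepatic steatosis, so no lean liver stands beside them, and the labels do not give sex or dose. One group received Dicretin, a co-agonist of the glucagon-like peptide-1 and glucagon receptors, and one received Semaglutide, an agonist of the glucagon-like peptide-1 receptor alone. The calorie restricted group lost an equivalent amount of weight by eating less, and the control group received saline. Against saline, a comparison asks what a treatment changed, and against calorie restriction it asks what a drug changed beyond weight loss.

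The core of the proteasome, called 20S, is a barrel of alpha and beta rings whose beta subunits Psmb5, Psmb6 and Psmb7 cut proteins. The regulatory particle, called 19S, caps the barrel: its base holds ATPases that unfold substrates, its lid removes ubiquitin, and dedicated chaperones help to assemble the base. Interferon induces Psmb8, Psmb9 and Psmb10, which take the places of Psmb5, Psmb6 and Psmb7 in the immunoproteasome and yield peptides for antigen presentation, while the transcription factor Nfe2l1 (NRF1) raises proteasome genes through antioxidant response elements when the protease is short.

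Sequence upstream of the start is shown for the chaperone Psmd9, which moved most with Dicretin among the members that rose, and for catalytic subunits of both kinds. RefSeq entries on GRCm38.p6 were matched for 38 members; Psma8, Psmb1, Psmb2, Psmb7, Psmc3, Psmd3 and Psmd7 were not. The 250 bases before each start were searched on both strands for TGACNNNGC (antioxidant response element core), GAAANNGAA (interferon-stimulated response element), TTCNNNGAA (STAT site) and TGACGTCA (cyclic AMP response element). Bases inside an exon of the gene are left off. This removes the windows of Psmb8 and Psmb9, which lie in exons of longer transcripts, except for 29 bases around the match in Psmb8. Capitals mark matches.
Psmd9: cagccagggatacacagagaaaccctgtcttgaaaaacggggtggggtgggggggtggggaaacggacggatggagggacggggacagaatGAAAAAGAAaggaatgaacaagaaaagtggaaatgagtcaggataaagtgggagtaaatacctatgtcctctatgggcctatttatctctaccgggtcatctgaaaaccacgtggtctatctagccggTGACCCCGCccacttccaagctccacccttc
Psmb10: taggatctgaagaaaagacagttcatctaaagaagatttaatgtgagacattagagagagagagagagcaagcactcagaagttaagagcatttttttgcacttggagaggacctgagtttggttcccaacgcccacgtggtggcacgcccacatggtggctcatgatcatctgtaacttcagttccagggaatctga
Psmb5: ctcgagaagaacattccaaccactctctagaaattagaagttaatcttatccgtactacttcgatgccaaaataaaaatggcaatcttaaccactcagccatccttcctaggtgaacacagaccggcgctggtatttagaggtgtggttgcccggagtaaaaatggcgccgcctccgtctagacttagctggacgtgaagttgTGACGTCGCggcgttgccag
Psmb6: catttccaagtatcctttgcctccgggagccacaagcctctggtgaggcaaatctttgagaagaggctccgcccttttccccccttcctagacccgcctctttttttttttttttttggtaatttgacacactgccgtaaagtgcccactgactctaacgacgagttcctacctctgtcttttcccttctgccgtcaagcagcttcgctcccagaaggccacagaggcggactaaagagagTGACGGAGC
Psmb8: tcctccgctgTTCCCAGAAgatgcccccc
These windows lie at chr5:123227940-123228189 (plus strand, Psmd9), chr8:105938445-105938642 (minus strand, Psmb10), chr14:54618023-54618245 (minus strand, Psmb5), chr11:70525107-70525356 (plus strand, Psmb6) and chr17:34198088-34198116 (plus strand, Psmb8). Psmd9 held an antioxidant core beginning 31 bases and an interferon match beginning 159 bases before its start, and the antioxidant cores of Psmb5 and Psmb6 began 47 and 9 bases before their starts. The antioxidant core stood in 5 of the 38 members (13.2%: Psmb5, Psmb6, Psmc6, Psmd12 and Psmd9), against 10.2% of all 32851 windows. The interferon match stood in 3 members (7.89%: Psmb3, Psmd4 and Psmd9), against 7.13% of all windows. The STAT match stood in Psmb8 alone (2.63%), against 7.02% of all windows, and the cyclic AMP element in 0 members, against 1.55%. These are letter matches and not shown to be bound, and a window without one lacks only these letters. Psmb9 and Psmb10 held none of the 4 motifs.

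Totals were 12.144 to 18.755 M (mega) counts per library. Levels are CPM, a gene's counts per M counts of its library, with totals scaled by TMM, the trimmed mean of log ratios. Values per library follow the order 14, 23, 64 and 65 in Dicretin, 11, 15, 31 and 51 in Semaglutide, 7, 8, 52 and 79 in calorie restriction, and 35, 50, 73 and 78 in saline. Log2 fold changes are ± SE, with the first-named group on top. Each adjusted p-value is from the quasi-likelihood test of edgeR, adjusted by Benjamini-Hochberg over the 12910 genes, and a member passed below 0.05. All 10 hepatocyte markers were tested. Against saline, 5 rose and 2 fell with Dicretin, where 17.5% of all genes were called higher and 19.2% lower. With Semaglutide 0 passed, where 1.56% were higher and 2.62% lower. With calorie restriction 2 rose and 0 fell, where 3.42% were higher and 4.11% lower. Their summed CPM was 98430 ± 7700 in Dicretin livers, 145500 ± 13510 in Semaglutide livers, 149600 ± 8838 in calorie restricted livers and 121000 ± 11740 in saline livers (SD, n = 4). With Dicretin against saline the median log2 fold change of these markers was 0.23, so the sum and the median pointed in different directions. The part of these marker differences in the member changes was not tested. Among the libraries, 2 stood apart in the proteasome genes: Semaglutide 11 was high and Dicretin 14 was low. Many, but not all, member calls that turn on them are given with and without both. Counts for gene lists other than the members are over all libraries.

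Dicretin against saline changed 6 of the 43 members, and few members moved in the other comparisons with saline. With Dicretin, 4 members rose: the base chaperone Psmd9, the lid subunits Psmd7 and Psmd13, and the nuclear activator Psme3. Immunoproteasome subunit Psmb9 and the testis subunit Psma8 fell. Of all genes tested, 17.5% were called higher and 19.2% lower in this comparison, against 9.30% (4 of 43) and 4.65% (2 of 43) of the members. Without Dicretin 14, the library lowest in these same genes, the share of members that rose was above that of all genes, at 25.6% against 17.9%. The median log2 fold change of the members was 0.15, against -0.01 over all genes.

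Semaglutide against saline changed 0 members by edgeR's quasi-likelihood test, with 8 at an unadjusted p under 0.05 and 0 by the DESeq2 Wald test and by limma-voom. Of all genes, 1.56% were called higher and 2.62% lower. The members' median was 0.23. Calorie restriction against saline changed 1 member, Psmb9, which fell, where 3.42% of all genes were called higher and 4.11% lower. The members' median was 0.00 there. Medians over all genes were 0.00 for Semaglutide and -0.01 for calorie restriction.

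Set against calorie restriction, Dicretin had 4 members higher (Psmd9, Psmd10, Psmd8 and Psmd7) and 4 lower (Psmb9, Psmd1, Psmd11 and Psmd2). The background was 15.1% higher and 16.2% lower. Semaglutide had 1 member higher (Psmd10) and 2 lower (Psmd1 and Psmd11) than calorie restriction, where 3.05% of all genes were higher and 3.07% lower. Dicretin against Semaglutide had 3 members higher (Psmd9, Psme3 and Psmd7) and 4 lower (Psmb9, Psma8, Psmb10 and Psma5), where 14.8% and 17.1% of all genes were called in these directions. Comparisons that share a group share its 4 libraries and are not separate evidence.

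**Figure D1:**
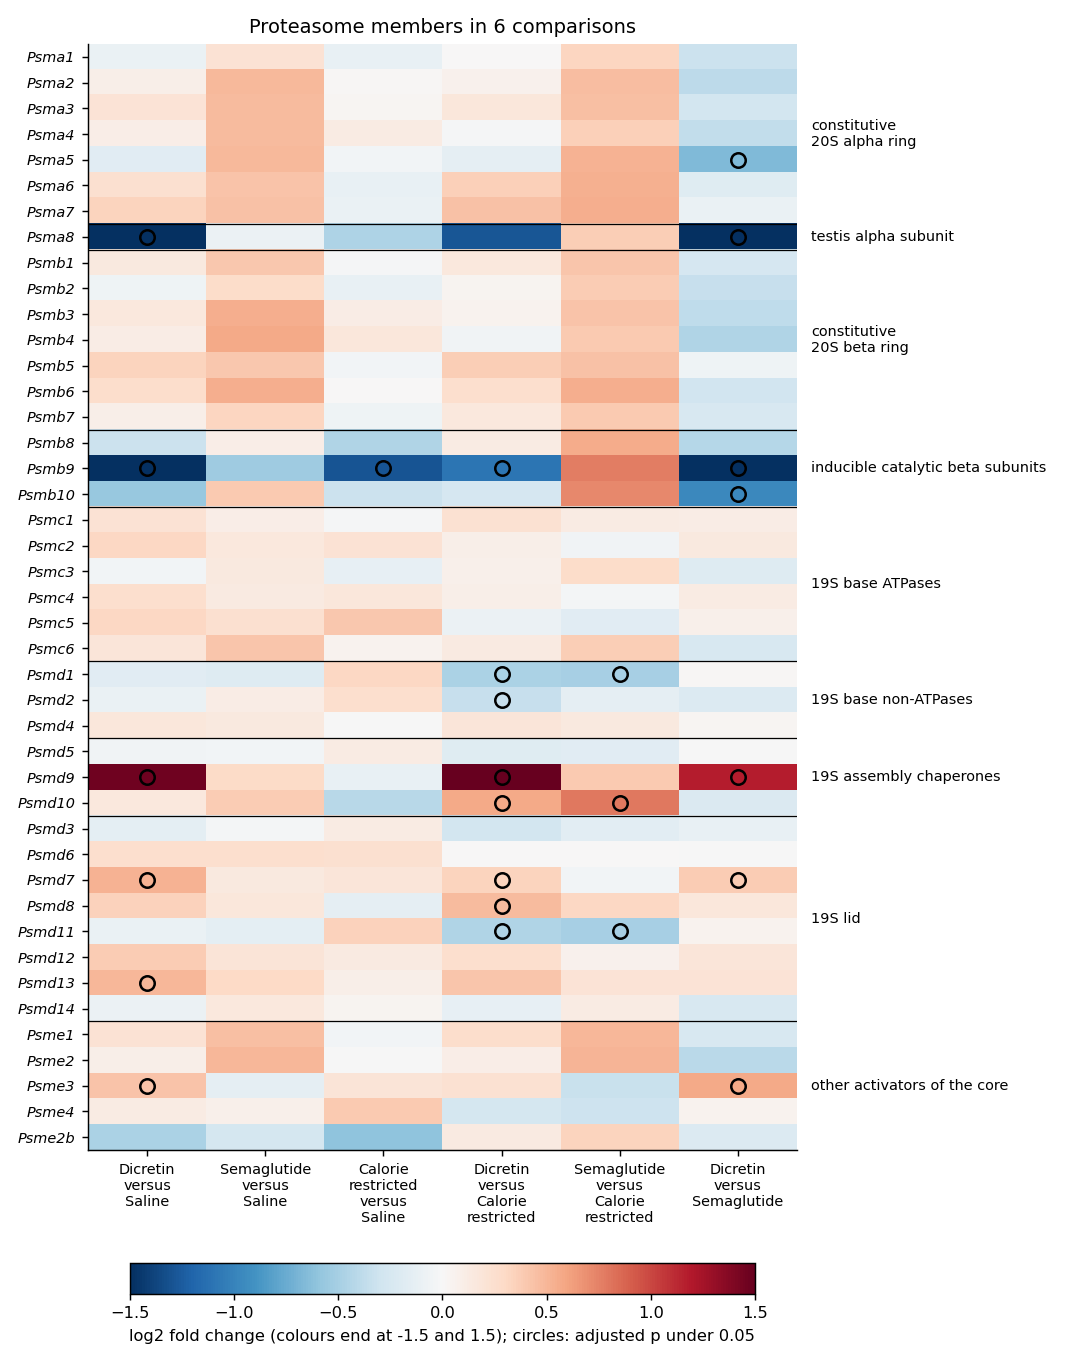
Log2 fold change (colour, first-named group on top) of the 43 tested members, ordered by role in rows, in 6 comparisons in columns; circles mark adjusted p-values under 0.05. Psmd9 is circled as higher in all 3 Dicretin columns and Psmb9 as lower in the same 3, while the core rows are pale against saline and carry no circle there.

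Over all libraries, the 14 constitutive core subunits did not pass in any comparison with saline. Their summed level was 1207, 1692, 2079 and 2196 CPM in Dicretin livers, 3455, 1770, 1950 and 1634 CPM in Semaglutide livers, 1476, 1841, 1472 and 1696 CPM in calorie restricted livers and 1451, 1668, 1662 and 1714 CPM in saline livers. Semaglutide 11 was highest of all and Dicretin 14 lowest of all, and every group overlapped every other. Of 14 subunits, 11 lay above 0 with Dicretin against saline (median log2 fold change 0.13), 14 with Semaglutide (median 0.46) and 6 with calorie restriction (median -0.02). Against calorie restriction the medians were 0.11 for Dicretin and 0.43 for Semaglutide. Without library 11 the Semaglutide median was 0.14 against saline and 0.14 against calorie restriction, with 14 of 14 above 0 in each. The 14 genes share the same libraries, so counts above 0 are not 14 separate observations, and the share of all genes above 0 is not given.

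The 17 subunits of the 19S base and lid followed, with a smaller spread in Semaglutide livers. Their summed level was 1417, 1771, 2087 and 2200 CPM in Dicretin livers, 2194, 1694, 1690 and 1732 CPM in Semaglutide livers, 1676, 1852, 1781 and 1972 CPM in calorie restricted livers and 1616, 1682, 1655 and 1721 CPM in saline livers. The groups overlapped, with Dicretin 14 again lowest. In Dicretin livers, 2 of 17 rose against saline (median 0.21), where 17.5% of all genes were called higher. With Semaglutide (median 0.15) and calorie restriction (median 0.13) 0 passed. There 1.56% and 3.42% of all genes were called higher, and 2.62% and 4.11% lower.

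**Figure D2:**
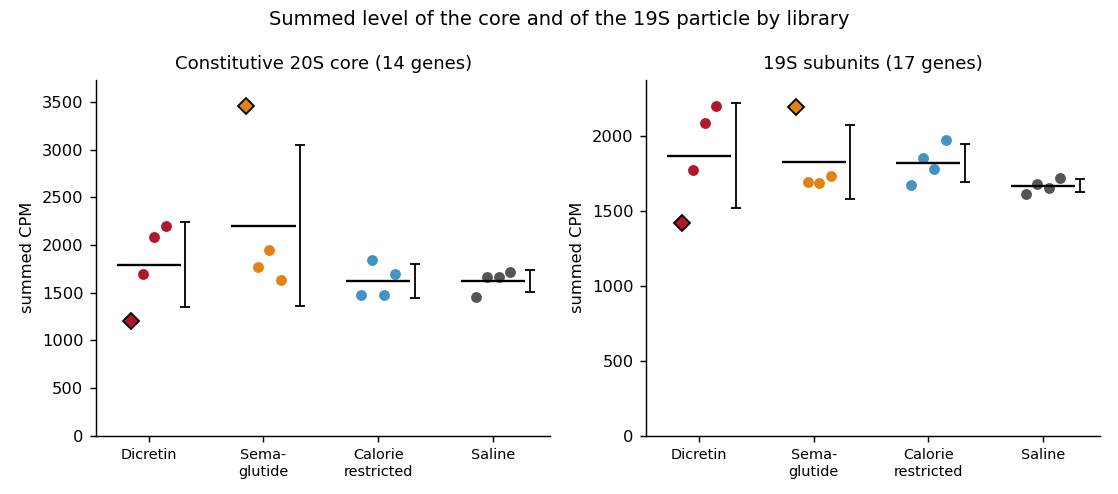
Summed CPM of the 14 constitutive core genes (left) and the 17 genes of the 19S base and lid (right), 1 point per library, with the group mean as a line and ± SD as a bar. Diamonds mark Dicretin 14 and Semaglutide 11: the core sum was 1207 in Dicretin 14 and 3455 in Semaglutide 11, outside the range of their group mates.

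Of the 26 alternatives, leaving out Dicretin 14 and Semaglutide 11 together gave the most members higher in Dicretin livers. These 2 libraries were the lowest and the highest in these same genes, so leaving them out raises most Dicretin differences by construction. Counts and adjusted p-values of this setting, here and below, show how far the calls rest on these libraries. They are not separate evidence of a rise. Dicretin against saline then had 19 of 43 members higher (44.2%), against 20.6% of all genes, and 1 lower (2.33%), against 21.8%. The 19 included 6 of the 14 core subunits and 10 of the 17 subunits of the 19S particle. Dicretin against calorie restriction had 14 members higher (32.6%), against 19.7% of all genes, and 5 lower (11.6%). Dicretin against Semaglutide had 12 higher (27.9%), against 16.6% of all genes, and 1 lower (2.33%). Over all libraries, 16.2% and 17.1% of all genes were lower in these 2 comparisons. Shares lower without both libraries are not given for them, so the counts lower have no matched share. Without Dicretin 14 alone, 11 members (25.6%) were higher than in saline, against 17.9% of all genes; 9 of them were 19S subunits and 0 were core subunits. The slope of each gene's log2 deviation on log2 exon length was 0.18 in Dicretin 14 and -0.27 in Semaglutide 11, against -0.12 to 0.11 in the other 14 libraries. With the length trend removed, Dicretin against saline had 9 members higher (20.9%), against 24.8% of all genes, and the Semaglutide core median against saline was 0.46.

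Levels were compared between genes per kilobase of principal transcript, as means of all 16 libraries. Psmb6, the caspase-like catalytic subunit, stood highest at 194 CPM per kb. The median was 110.6 CPM per kb over the 14 core subunits, from 36.9 (Psma2) to 194, and 54.0 CPM per kb over the 17 base and lid subunits, from 34.0 (Psmd1) to 95.7 (Psmd8). Inducible subunits were lower, with Psmb10 at 29.7, Psmb8 at 16.4 and Psmb9 at 11.9 CPM per kb. The activator pair Psme1 and Psme2 stood with the core at 105 and 112 CPM per kb, and the chaperones were at 26.6 (Psmd9), 11.3 (Psmd10) and 7.47 (Psmd5). Over the length of all exons together the core median was 53.9, the 19S median 38.2 and the inducible median 7.91 CPM per kb, so these 3 groups kept their order, while Psmb6 ranked below Psma6, Psmb5 and Psmb4.

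**Figure D3:**
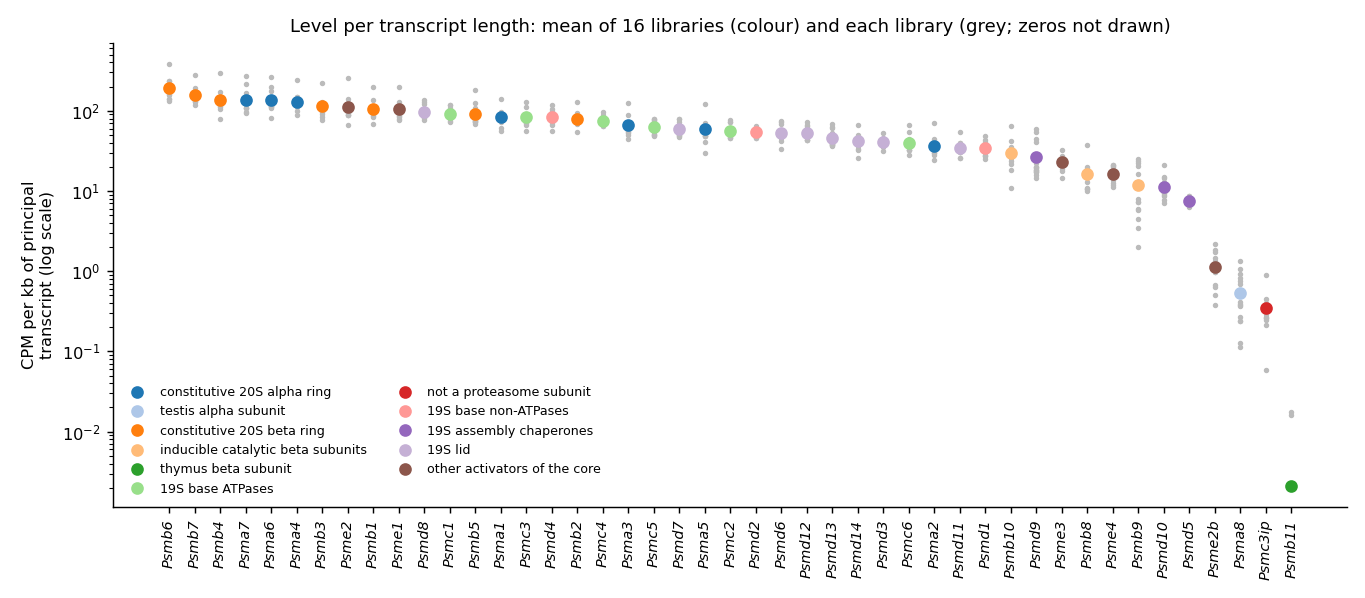
CPM per kb of principal transcript on a log scale for all 45 members, from highest to lowest mean, coloured by role, with single libraries in grey. The constitutive core and Psme1 and Psme2 fill most of the left side, and the inducible subunits and chaperones stand to the right of the 19S subunits.

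Among the catalytic subunits, Psmb9 was the only one that passed against saline. Its gene lies at chr17:34181987-34187764 on the minus strand (GRCm38). Psmb9 measured 2.73, 4.69, 6.10 and 8.05 CPM in Dicretin livers and 34.2, 15.9, 17.6 and 9.83 CPM in Semaglutide livers. It measured 10.6, 17.3, 9.95 and 7.82 CPM in calorie restricted livers and 27.4, 30.2, 31.6 and 22.3 CPM in saline livers. All Dicretin and all calorie restricted libraries lay below all saline libraries, the Dicretin libraries lay below all Semaglutide libraries, and Dicretin and calorie restriction overlapped by 1 library each. Psmb9 fell with Dicretin against saline (-2.39 ± 0.35, adjusted p = 4.58e-05), against calorie restriction (-1.10 ± 0.35, adjusted p = 0.0234) and against Semaglutide (-1.86 ± 0.35, adjusted p = 0.000538). It also fell with calorie restriction against saline (-1.29 ± 0.34, adjusted p = 0.0243). With Semaglutide the difference from saline did not pass (-0.53 ± 0.33, adjusted p = 0.408), but Psmb9 was lower without Dicretin 14 and Semaglutide 11 (adjusted p = 0.0369). The calls against saline and Semaglutide for Dicretin held in all 26 alternatives. The Dicretin call against calorie restriction was lost in 4, with adjusted p up to 0.0946, and the calorie restriction call against saline in 7, with adjusted p up to 0.0794.

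Psmb8 measured 16.3, 17.1, 29.5 and 32.3 CPM in Dicretin livers and 61.4, 24.7, 23.4 and 18.0 CPM in Semaglutide livers. It measured 24.4, 20.9, 17.4 and 24.2 CPM in calorie restricted livers and 31.0, 30.6, 30.1 and 26.6 CPM in saline livers. The calorie restricted libraries all lay below saline, Dicretin overlapped saline, and Semaglutide 11 stood far above its mates. Psmb8 passed in no comparison over all libraries, and in the fit of 2 groups alone it was lower with calorie restriction (adjusted p = 0.0232). Against saline the log2 fold change was -0.32 ± 0.30 with Dicretin, 0.10 ± 0.30 with Semaglutide and -0.45 ± 0.30 with calorie restriction.

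Psmb10 measured 14.3, 23.8, 37.9 and 34.7 CPM in Dicretin livers and 85.8, 40.8, 55.3 and 34.4 CPM in Semaglutide livers. It measured 35.9, 36.4, 28.4 and 30.8 CPM in calorie restricted livers and 43.8, 41.2, 45.8 and 33.7 CPM in saline livers. Psmb10 was lowest in Dicretin 14 and highest in Semaglutide 11, and the Dicretin and Semaglutide groups overlapped. It fell with Dicretin against Semaglutide (-0.97 ± 0.27, adjusted p = 0.0112), a call lost without these 2 libraries and in the fit of these 2 groups alone (adjusted p up to 0.0802). Against saline it did not pass with Dicretin (-0.57 ± 0.27, adjusted p = 0.108).

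The constitutive counterparts passed in no comparison over all libraries. Psmb5, the chymotrypsin-like subunit, measured 67.1, 79.5, 112 and 98.5 CPM in Dicretin livers, 161, 74.7, 73.9 and 65.0 CPM in Semaglutide livers, 62.2, 80.3, 64.4 and 69.9 CPM in calorie restricted livers and 67.0, 75.8, 70.3 and 70.5 CPM in saline livers. Psmb6 measured 105, 158, 186 and 189 CPM in Dicretin livers, 307, 160.4, 171 and 139 CPM in Semaglutide livers, 126, 161, 112 and 134 CPM in calorie restricted livers and 112, 128, 152 and 140.2 CPM in saline livers. Psmb7, the trypsin-like subunit, measured 139, 172, 224 and 183 CPM in Dicretin livers, 324, 171, 191 and 163 CPM in Semaglutide livers, 148, 177, 153 and 167 CPM in calorie restricted livers and 152, 173, 168 and 183 CPM in saline livers. In all 3 genes Semaglutide 11 was highest of all 16 libraries, and the groups overlapped. Psmb5 against Semaglutide changed direction in Dicretin livers with the choice of libraries, at -0.07 ± 0.23 with all of them and 0.44 without Dicretin 14 and Semaglutide 11, where it passed (adjusted p = 0.0142). Without both libraries, Dicretin livers were also higher than saline livers for Psmb5 (0.45 ± 0.12, adjusted p = 0.00667) and Psmb6 (0.42 ± 0.13, adjusted p = 0.017), and higher than calorie restricted livers for Psmb5 (0.48 ± 0.12, adjusted p = 0.00434) and Psmb6 (0.41 ± 0.13, adjusted p = 0.0189).

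Relative to its counterpart, each inducible subunit had its lowest mean in Dicretin livers. Psmb9 per 100 Psmb6, as a ratio of CPM per kb, was 1.53, 1.76, 1.93 and 2.52 in Dicretin livers, 6.57, 5.87, 6.09 and 4.17 in Semaglutide livers, 4.96, 6.37, 5.23 and 3.43 in calorie restricted livers and 14.4, 13.9, 12.3 and 9.40 in saline livers. All Dicretin values lay below all others, and all saline values above all others. Psmb8 per 100 Psmb5 was 14.5 ± 2.66 in Dicretin livers, 18.0 ± 2.38 in Semaglutide livers, 17.5 ± 3.45 in calorie restricted livers and 23.1 ± 2.02 in saline livers (SD, n = 4). Psmb10 per 100 Psmb7 was 13.3 ± 3.32 in Dicretin livers, 22.2 ± 2.99 in Semaglutide livers, 18.1 ± 2.42 in calorie restricted livers and 21.7 ± 4.07 in saline livers (SD, n = 4). For these pairs the Dicretin values lay below all saline values in Psmb8 and overlapped them in Psmb10. These ratios are descriptions without a test.

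**Figure D4:**
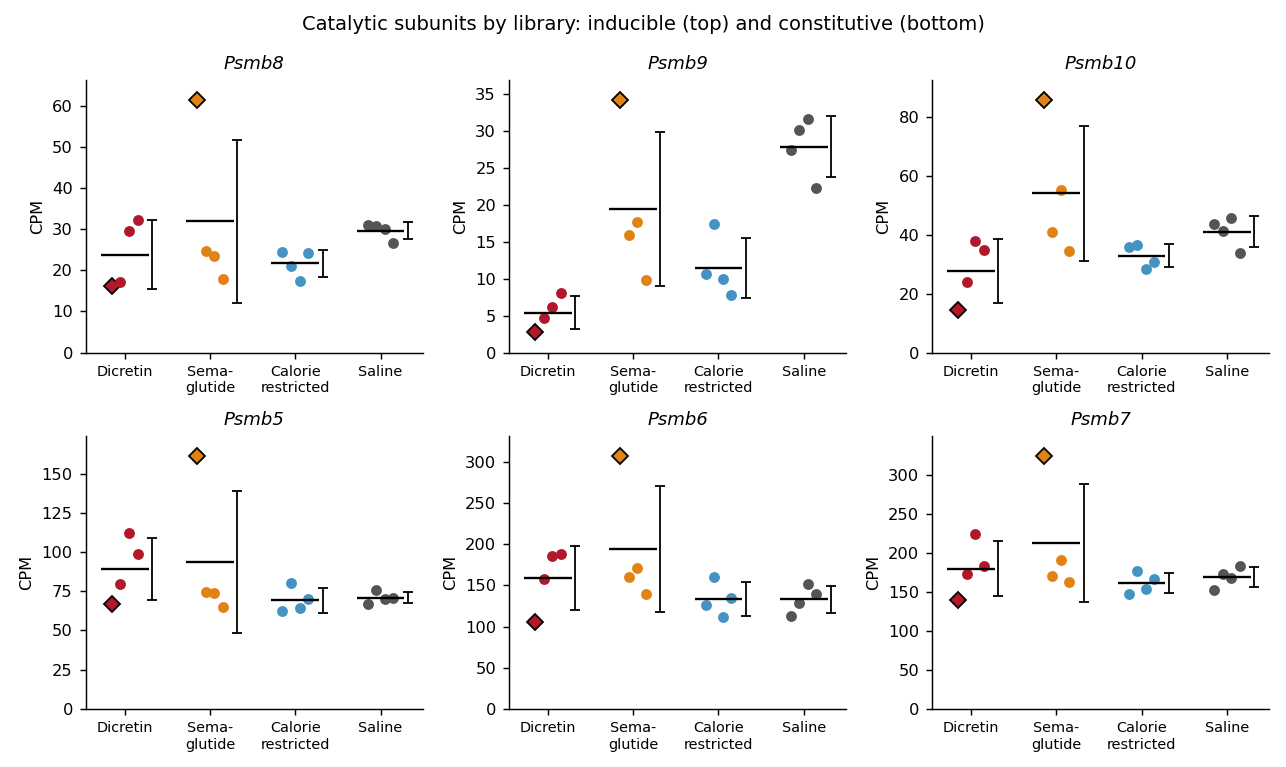
CPM of the inducible catalytic subunits (top) and of the constitutive counterpart of each (bottom), 1 point per library, with the group mean as a line and ± SD as a bar; diamonds mark Dicretin 14 and Semaglutide 11. Psmb9 lies at 2.73 to 8.05 CPM in Dicretin and at 22.3 to 31.6 CPM in saline, while the constitutive subunits overlap between the groups.

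Genes of interferon response and antigen presentation were read beside the inducible subunits. Of 21 tested, 2 rose (the interferon regulatory factors Irf7 and Irf9) and 6 fell with Dicretin against saline, 0 rose and 5 fell with Semaglutide, and 0 rose and 2 fell with calorie restriction. The shares over all genes, higher and lower, were 17.5% and 19.2%, 1.56% and 2.62%, and 3.42% and 4.11% in these comparisons. Dicretin 65 carried most of the rise of Irf7, with 34.1, 40.5, 26.9 and 115 CPM in Dicretin livers and 30.8, 26.9, 29.4 and 25.6 CPM in saline livers, and of Irf9, with 36.6, 31.0, 33.7 and 67.9 CPM in Dicretin livers and 26.7, 25.4, 29.7 and 25.6 CPM in saline livers. Both calls were lost without that library, and over all alternatives the adjusted p went up to 0.199 for Irf7 and 0.0776 for Irf9. Tap1, a peptide transporter subunit whose gene adjoins Psmb9 head to head, measured 11.5, 7.67, 11.3 and 14.2 CPM in Dicretin livers, 21.2, 18.98, 21.4 and 19.4 CPM in Semaglutide livers, 17.1, 20.7, 16.6 and 14.6 CPM in calorie restricted livers and 39.1, 34.7, 37.7 and 27.9 CPM in saline livers. All saline libraries lay above all others. Tap1 fell with Dicretin (-1.64 ± 0.18, adjusted p = 1.13e-06), with Semaglutide (-0.79 ± 0.17, adjusted p = 0.0122) and with calorie restriction (-1.01 ± 0.17, adjusted p = 0.00148) against saline. Its exons share 212 bases with those of Psmb9 on the opposite strand, and reads there could be told apart only if strand was used in counting, which the sources used here do not state. In Dicretin livers against saline, Nlrc5, an activator of these genes, had a log2 fold change of -1.47 ± 0.24, Tap2, the other transporter subunit, -1.02 ± 0.16, and H2-K1, a class I presenting molecule, -0.45 ± 0.13, and all 3 fell. With Semaglutide the genes that fell included the interferon-induced Gbp2 (-1.34 ± 0.33), Ifit1 (-1.38 ± 0.36) and Ifit3 (-1.21 ± 0.30). The Ifit1 and Ifit3 calls were lost in 9 and 7 of 26 alternatives, with adjusted p up to 0.114 and 0.121. Leaving out any 1 Semaglutide library was enough to lose either. The Gbp2 call was lost in 3 (adjusted p up to 0.121). With calorie restriction, Ifit3 fell (-1.01 ± 0.30) beside Tap1, a call lost in 14 of 26 alternatives (adjusted p up to 0.151).

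Leukocytes express the inducible subunits at high levels, so their markers are given here. The summed CPM of 39 leukocyte markers ranged over 302.0 to 731.8 in Dicretin livers, 206.7 to 568.2 in Semaglutide livers, 179.2 to 392.2 in calorie restricted livers and 416.0 to 498.0 in saline livers, and Ly6g was at 0 in every library. Of 31 markers tested, 0 rose and 4 fell with Dicretin, 0 rose and 3 fell with Semaglutide, and 0 rose and 1 fell with calorie restriction, each against saline. The shares over all genes, higher and lower, were 17.5% and 19.2%, 1.56% and 2.62%, and 3.42% and 4.11% in these comparisons. Against calorie restriction, 7 leukocyte markers were higher with Dicretin and 1 was lower, where 15.1% of all genes were higher and 16.2% lower. The dendritic cell list summed to 53.0 ± 16.3 CPM in Dicretin livers, 46.8 ± 8.44 CPM in Semaglutide livers, 49.7 ± 10.8 CPM in calorie restricted livers and 98.6 ± 25.7 CPM in saline livers (SD, n = 4). The Kupffer cell list summed to 285 ± 135 CPM in Dicretin livers, 158 ± 102 CPM in Semaglutide livers, 115 ± 78.6 CPM in calorie restricted livers and 201 ± 50.4 CPM in saline livers. Thus the dendritic sum was low in all 3 other groups against saline, and the mean Kupffer sum was highest with Dicretin. Of the 6 dendritic markers, 4 were tested, and 1 fell in each comparison with saline, so the sum may rest on few genes. The part of leukocytes in the fall of Psmb9 was not tested, and in whole liver fewer cells of a type and less RNA per cell cannot be told apart.

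Psmd9, which holds an ATPase of the base during assembly, rose most of all members. It measured 116, 106, 139.7 and 153 CPM in Dicretin livers and 66.6, 52.0, 57.7 and 51.2 CPM in Semaglutide livers. It measured 41.4, 46.7, 38.2 and 47.6 CPM in calorie restricted livers and 44.2, 45.4, 47.3 and 50.1 CPM in saline livers. Every Dicretin library lay above every other library, and the Semaglutide libraries lay above all calorie restricted and saline libraries. Psmd9 rose against saline (1.46 ± 0.14, adjusted p = 2.85e-07), against calorie restriction (1.57 ± 0.14, adjusted p = 1.62e-07) and against Semaglutide (1.18 ± 0.14, adjusted p = 3.7e-06), and each call held in all 26 alternatives. With Semaglutide it did not pass against saline (0.28 ± 0.14, adjusted p = 0.274). GENCODE M21 (GRCm38) places the gene at chr5:123169413-123250131 on the plus strand, of which the part upstream of the printed window belongs to longer transcripts. Hpd, a tyrosine catabolic enzyme, lies in that part on the opposite strand without shared exon bases. Hpd measured 2795, 5261, 4890 and 7437 CPM in Dicretin livers, 2411, 2506, 2175 and 2429 CPM in Semaglutide livers, 2223, 2905, 2497 and 2371 CPM in calorie restricted livers and 2129, 2165, 2921 and 3038 CPM in saline livers. Hpd was thus higher in 3 of 4 Dicretin libraries than in all others, and its part in the Psmd9 counts was not tested. Gm26745, an antisense gene that shares 1849 exon bases with Psmd9, was at 0 in every library.

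The other base chaperones passed in no comparison with saline. Psmd10 (gankyrin) measured 13.4, 14.0, 21.3 and 20.6 CPM in Dicretin livers, 29.9, 17.3, 18.5 and 15.0 CPM in Semaglutide livers, 10.2, 13.4, 12.2 and 10.9 CPM in calorie restricted livers and 16.8, 16.98, 12.9 and 15.4 CPM in saline livers. The calorie restricted libraries lay below all Dicretin and Semaglutide libraries, in the Dicretin case by less than 0.1 CPM at the nearest. Psmd10 was higher than in calorie restriction with Dicretin (0.57 ± 0.21, adjusted p = 0.0482) and with Semaglutide (0.79 ± 0.21, adjusted p = 0.0331), calls that were lost in 16 and 7 of 26 alternatives, with adjusted p up to 0.144 and 0.12. Psmd5 measured 30.1, 29.6, 33.6 and 32.5 CPM in Dicretin livers, 35.0, 30.7, 33.6 and 27.5 CPM in Semaglutide livers, 34.9, 31.6, 38.3 and 37.5 CPM in calorie restricted livers and 28.8, 32.5, 34.9 and 34.4 CPM in saline livers, and passed nowhere.

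Lid subunits that passed moved in both directions. Psmd7, the partner of the deubiquitinase Psmd14, measured 93.7, 115, 124 and 126 CPM in Dicretin livers and 103, 78.6, 87.0 and 83.6 CPM in Semaglutide livers. It measured 85.7, 88.3, 95 and 93.4 CPM in calorie restricted livers and 77.2, 79.7, 75.5 and 85.9 CPM in saline livers. The Dicretin libraries lay above all saline libraries and overlapped the other groups through library 14. Psmd7 rose with Dicretin against saline (0.53 ± 0.12, adjusted p = 0.00279) in all 26 alternatives, and was higher than in Semaglutide (0.38 ± 0.12, adjusted p = 0.0249) and calorie restriction (0.34 ± 0.12, adjusted p = 0.044), calls lost in 7 and 15 of 26, with adjusted p up to 0.127 and 0.126.

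Psmd13, a structural lid subunit, measured 80.6, 105, 127 and 119.6 CPM in Dicretin livers, 136, 78.8, 85.7 and 74.2 CPM in Semaglutide livers, 84.4, 83.5, 72.6 and 83.6 CPM in calorie restricted livers and 74.1, 77.6, 78.5 and 75.9 CPM in saline livers. All Dicretin libraries lay above all saline libraries, by little in library 14. Psmd13 rose against saline (0.50 ± 0.17, adjusted p = 0.0333), a call lost in 7 of 26 alternatives, among them each saline library left out (adjusted p up to 0.0983). Without Dicretin 14 and Semaglutide 11 it was also higher than in calorie restricted livers (0.53 ± 0.10, adjusted p = 0.000536) and Semaglutide livers (0.56 ± 0.11, adjusted p = 0.000776), where it did not pass over all libraries. Its exons share 342 bases with Sirt3 on the opposite strand.

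Psmd8, a lid subunit that joins late in assembly, measured 137, 161, 188 and 207 CPM in Dicretin livers, 197, 140.5, 144 and 135 CPM in Semaglutide livers, 118, 124, 129.7 and 127 CPM in calorie restricted livers and 141, 135, 131 and 139.9 CPM in saline livers. The calorie restricted libraries were the lowest of all 16. Psmd8 was higher in Dicretin than in calorie restricted livers (0.47 ± 0.15, adjusted p = 0.0191), lost in 3 of 26 alternatives (adjusted p up to 0.068). Against saline it did not pass with Dicretin (0.34 ± 0.14, adjusted p = 0.0736), although it did in 5 alternatives, and without Dicretin 14 and Semaglutide 11 it was also higher than in Semaglutide livers (0.41 ± 0.11, adjusted p = 0.00859).

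Psmd11, a lid scaffold, measured 73.1, 98.9, 96.9 and 86.6 CPM in Dicretin livers, 74.0, 88.5, 86.4 and 94.8 CPM in Semaglutide livers, 105, 112, 113 and 154 CPM in calorie restricted livers and 98.0, 87.4, 101 and 94.4 CPM in saline livers. Psmd1, the larger scaffold of the base, measured 78.3, 97.0, 85.4 and 116 CPM in Dicretin livers, 84.4, 95.9, 87.3 and 103 CPM in Semaglutide livers, 114, 127, 133 and 151 CPM in calorie restricted livers and 104, 108, 104 and 108 CPM in saline livers. Psmd2, the scaffold that docks ubiquitin receptors, measured 136, 147, 152 and 134 CPM in Dicretin livers, 153, 174, 156 and 175 CPM in Semaglutide livers, 174, 174, 181 and 194 CPM in calorie restricted livers and 162, 158, 141 and 148 CPM in saline livers. These 3 genes had their highest mean in calorie restricted livers, and only Psmd1 had an overlap between Dicretin and calorie restriction. Dicretin was lower than calorie restriction for Psmd1 (-0.48 ± 0.13, adjusted p = 0.0112), Psmd11 (-0.45 ± 0.14, adjusted p = 0.0222) and Psmd2 (-0.35 ± 0.11, adjusted p = 0.024), calls lost in 1, 5 and 5 of 26 alternatives. Semaglutide was lower for Psmd1 (-0.50 ± 0.13, adjusted p = 0.0323) and Psmd11 (-0.49 ± 0.14, adjusted p = 0.0441), lost in 9 and 15 of 26, with adjusted p up to 0.11 and 0.154. For Dicretin the adjusted p went up to 0.0846 (Psmd1), 0.103 (Psmd11) and 0.127 (Psmd2). With the exon length trend removed, Psmd1 and Psmd11 passed against calorie restriction with neither drug. None of the 3 genes passed against saline in the main fit, although all calorie restricted libraries lay above all saline libraries for each. In the edgeR fit of 2 groups alone, Psmd1 (adjusted p = 0.0324) and Psmd11 (adjusted p = 0.0452) were higher with calorie restriction than in saline livers. By the DESeq2 Wald test Psmd2 was higher in that comparison (adjusted p = 0.0492). Exons of Psmd1 share 301 bases with Gm21972 on the same strand, which counting by strand could not resolve, and 252 bases with Htr2b on the opposite strand.

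**Figure D5:**
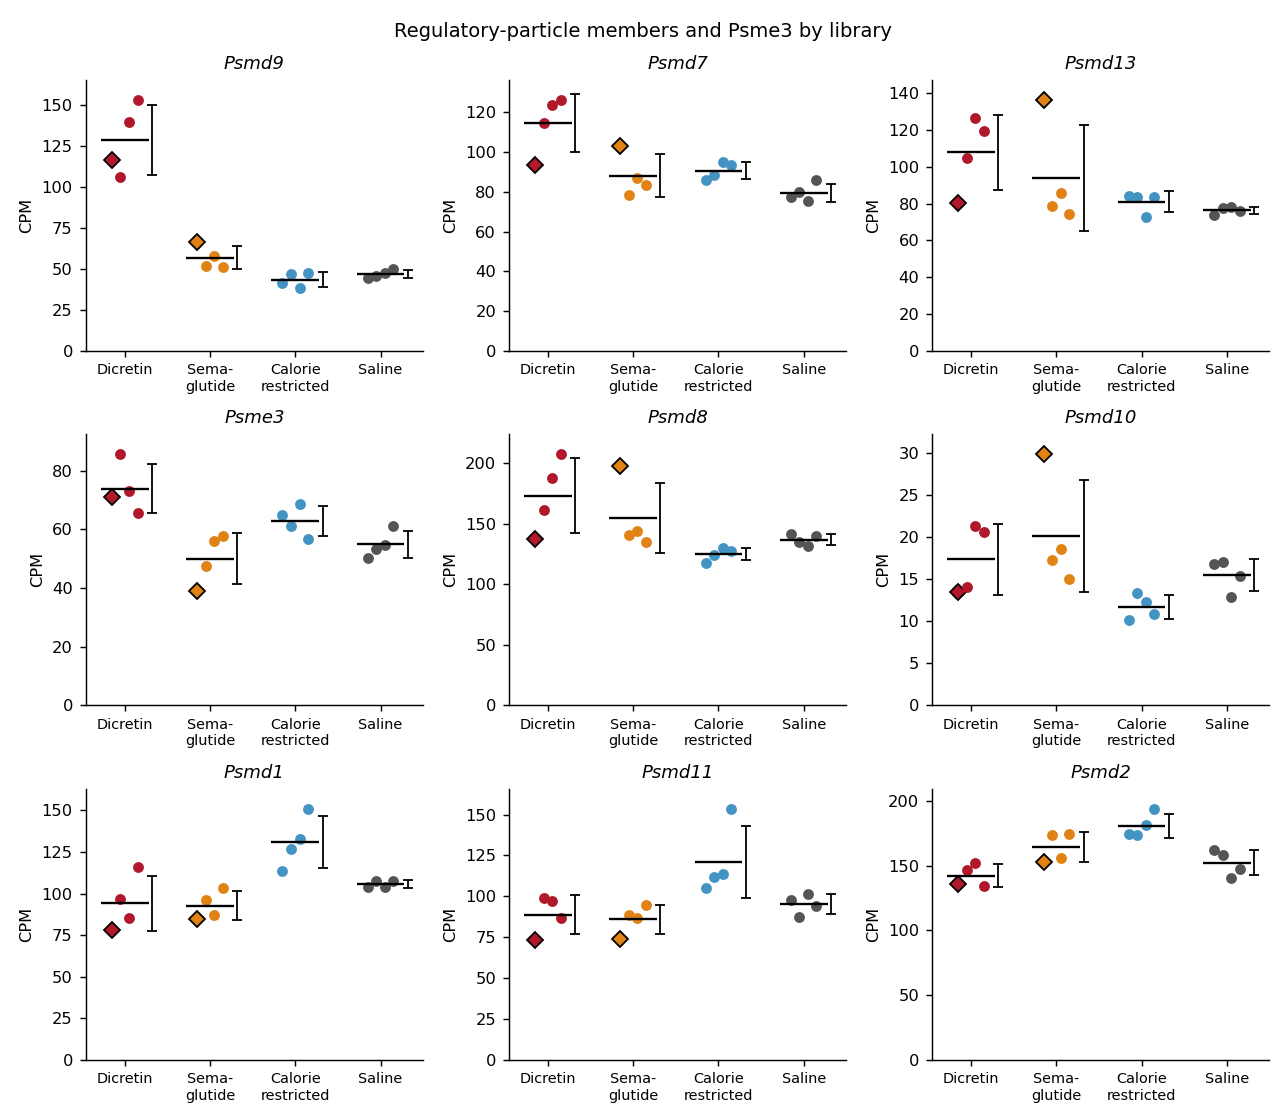
CPM of 8 members of the 19S particle or its chaperones and of the activator Psme3, 1 point per library, with the group mean as a line and ± SD as a bar; diamonds mark Dicretin 14 and Semaglutide 11. Psmd9 separates Dicretin from all other groups, and Psmd1, Psmd11 and Psmd2 have their highest mean in calorie restriction.

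Over all libraries, the ATPases Psmc1 to Psmc6 passed in no comparison, with log2 fold changes against saline of -0.04 to 0.31 with Dicretin, 0.10 to 0.42 with Semaglutide and -0.12 to 0.40 with calorie restriction. Without Dicretin 14 and Semaglutide 11, Psmc1 (0.34 ± 0.12, adjusted p = 0.023), Psmc2 (0.43 ± 0.12, adjusted p = 0.00724), Psmc4 (0.35 ± 0.10, adjusted p = 0.0109) and Psmc5 (0.42 ± 0.11, adjusted p = 0.00617) were higher in Dicretin than in saline livers, as were the alpha subunits Psma3 (0.35 ± 0.13, adjusted p = 0.0414), Psma6 (0.44 ± 0.13, adjusted p = 0.0103) and Psma7 (0.51 ± 0.14, adjusted p = 0.00644). Psmc5 was then higher with calorie restriction than in saline livers as well (0.40 ± 0.11, adjusted p = 0.0173). Of the 7 alpha subunits, Psma5 alone passed in a comparison over all libraries. Psma5 measured 37.3, 50.3, 73.2 and 81.5 CPM in Dicretin livers, 152, 75.2, 86.1 and 68.8 CPM in Semaglutide livers, 59.6, 69.7, 60.8 and 75.4 CPM in calorie restricted livers and 59.6, 73.3, 62.5 and 76.8 CPM in saline livers. The groups overlapped, with Semaglutide 11 highest and Dicretin 14 lowest. Psma5 was lower in Dicretin than in Semaglutide livers (-0.66 ± 0.24, adjusted p = 0.0443), a call lost in 16 of 26 alternatives, with adjusted p up to 0.446.

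Psma8, which replaces Psma7 in testis, was near the detection limit, with 3 to 33 counts per library. It measured 0.214, 0.190, 0.406 and 0.693 CPM in Dicretin livers, 1.27, 2.28, 0.454 and 0.626 CPM in Semaglutide livers, 0.642, 1.38, 0.890 and 0.668 CPM in calorie restricted livers and 1.57, 0.407, 1.16 and 1.82 CPM in saline livers. The Dicretin libraries lay at the low end and overlapped the Semaglutide and saline libraries. Psma8 fell with Dicretin against saline (-1.75 ± 0.59, adjusted p = 0.026) and against Semaglutide (-1.66 ± 0.59, adjusted p = 0.039), calls lost in 6 and 8 of 26 alternatives, with adjusted p up to 0.0795 and 0.189.

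Among activators that open the core without ATP, Psme3 (nuclear) alone passed. Psme3 measured 71.0, 85.5, 73.2 and 65.6 CPM in Dicretin livers, 38.9, 47.5, 55.9 and 57.6 CPM in Semaglutide livers, 64.9, 61.0, 68.5 and 56.7 CPM in calorie restricted livers and 50.2, 53.3, 54.7 and 61.2 CPM in saline livers. All Dicretin libraries lay above all Semaglutide and all saline libraries, and overlapped calorie restriction. Psme3 rose against saline (0.43 ± 0.14, adjusted p = 0.0198), lost in 2 of 26 alternatives (adjusted p up to 0.0611), and against Semaglutide (0.56 ± 0.14, adjusted p = 0.00414), lost in 0. Here Semaglutide 11 was the lowest library, unlike in the core genes.

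The interferon-inducible pair Psme1 and Psme2 passed in no comparison over all libraries. Psme1 measured 84.8, 119, 135 and 142 CPM in Dicretin livers, 218, 111, 124 and 113 CPM in Semaglutide livers, 92.0, 119, 88.5 and 102 CPM in calorie restricted livers and 103, 99.7, 115 and 96.7 CPM in saline livers. Psme2 measured 63.7, 92.2, 135 and 119 CPM in Dicretin livers, 249.7, 99.96, 109.7 and 84.3 CPM in Semaglutide livers, 85.8, 119, 85.4 and 92.5 CPM in calorie restricted livers and 91.9, 98.7, 104 and 90.2 CPM in saline livers. Both were highest in Semaglutide 11, and all groups overlapped. Without Dicretin 14 and Semaglutide 11, Psme1 was higher in Dicretin than in saline livers (0.35 ± 0.12, adjusted p = 0.0223) and calorie restricted livers (0.40 ± 0.12, adjusted p = 0.0117). Psme4, an activator with nuclear roles, measured 139, 117, 82.7 and 71.8 CPM in Dicretin livers, 77.7, 115, 94.8 and 109 CPM in Semaglutide livers, 131, 97.2, 135 and 128 CPM in calorie restricted livers and 97.8, 95.7, 88.5 and 93.5 CPM in saline livers. It passed in no comparison over all libraries, and was lower in Dicretin than in calorie restricted livers without those 2 libraries (-0.44 ± 0.15, adjusted p = 0.0277). Psme2b, a close copy of Psme2, measured 0.321 to 1.84 CPM over all libraries, and reads may be split between the copies.

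Psmb11, a thymus subunit, had 1 count in Semaglutide 11 and 1 in Saline 73 and none elsewhere, and was not tested. Psmc3ip, not tested either, measured 0.482, 0.317, 0.474 and 0.346 CPM in Dicretin livers, 0.525, 0.276, 1.17 and 0.376 CPM in Semaglutide livers, 0.409, 0.0764, 0.576 and 0.334 CPM in calorie restricted livers and 0.506, 0.465, 0.340 and 0.413 CPM in saline livers.

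Genes around the proteasome were counted in 3 further lists. Of 16 assembly and accessory genes outside the naming rule, 4 rose with Dicretin against saline and 0 fell, where 17.5% and 19.2% of all genes were called, and 0 passed with Semaglutide or calorie restriction. The 4 were the 19S deubiquitinase Uchl5 (0.61 ± 0.14, adjusted p = 0.00188), the thioredoxin-like 19S partner Txnl1 (0.54 ± 0.18, adjusted p = 0.0209), Fam192a, a partner of Psme3 (0.44 ± 0.12, adjusted p = 0.00715), and the ubiquitin receptor Adrm1 (0.43 ± 0.14, adjusted p = 0.0239). Calls for Txnl1 and Adrm1 were lost in 2 and 7 of 26 alternatives, with adjusted p up to 0.0807 and 0.0716. Uchl5 measured 38.6, 41.7, 35.3 and 31.7 CPM in Dicretin livers and 22.3, 23.5, 24.8 and 26.1 CPM in saline livers, without overlap. Against Semaglutide, 3 of 16 were higher in Dicretin livers and 0 lower, where 14.8% and 17.1% of all genes were called. Against calorie restriction the counts were 2 and 0, where 15.1% and 16.2% of all genes were called.

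Of 9 genes of the NRF1 pathway, 1 rose and 1 fell with Dicretin against saline, 0 passed with Semaglutide, and 1 rose and 2 fell with calorie restriction. Of all genes, 17.5% were called higher and 19.2% lower with Dicretin, and 3.42% and 4.11% with calorie restriction. Nfe2l1 itself measured 158, 156, 117 and 93.9 CPM in Dicretin livers and 134, 124, 123 and 116 CPM in saline livers, which overlapped, and it passed in no comparison. The ubiquitin ligase Syvn1 rose with Dicretin (0.82 ± 0.19, adjusted p = 0.00285) and with calorie restriction (0.85 ± 0.19, adjusted p = 0.0111) against saline. The small Maf proteins that pair with NRF1 fell, Mafg with Dicretin (-0.65 ± 0.16, adjusted p = 0.00382) and Maff (-2.08 ± 0.33, adjusted p = 0.000847) and Mafk (-0.87 ± 0.24, adjusted p = 0.0343) with calorie restriction; the Mafk call was lost in 8 of 26 alternatives (adjusted p up to 0.0995).

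Of 21 genes of ubiquitin and of delivery to the proteasome, 8 rose and 1 fell with Dicretin against saline, 0 passed with Semaglutide, and 3 rose and 0 fell with calorie restriction. Of all genes, 17.5% rose and 19.2% fell with Dicretin, and 3.42% rose and 4.11% fell with calorie restriction. The median log2 fold changes were 0.29, -0.03 and 0.25 in that order of groups. The ubiquitin shuttle Ubqln4 measured 60.9, 58.0, 45.7 and 43.2 CPM in Dicretin livers, 18.2, 31.0, 30.1 and 32.9 CPM in Semaglutide livers, 39.9, 32.1, 38.2 and 36.1 CPM in calorie restricted livers and 23.0, 23.4, 27.4 and 22.7 CPM in saline livers. Dicretin and calorie restricted libraries both lay above all saline libraries, and the Dicretin libraries above all others. Ubqln4 rose with Dicretin (1.11 ± 0.17, adjusted p = 7.39e-05) and with calorie restriction (0.60 ± 0.17, adjusted p = 0.0392). With Dicretin the others with the smallest p were the chaperone Hspa8 (1.03 ± 0.24, adjusted p = 0.00228), the autophagy receptor Sqstm1 (0.92 ± 0.14, adjusted p = 8.05e-05) and Faf1, a cofactor of the unfoldase Vcp (0.81 ± 0.22, adjusted p = 0.00805), and all 3 rose. With calorie restriction the shuttles Rad23b (0.49 ± 0.12, adjusted p = 0.0172) and Ubqln1 (0.56 ± 0.15, adjusted p = 0.0256) rose. The calorie restriction calls were lost in 7 (Ubqln4), 2 (Rad23b) and 7 (Ubqln1) of 26 alternatives, with adjusted p up to 0.105, 0.0518 and 0.0657.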

How the data were processed

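Poly(A) RNA from Trizol extracts was made into directional libraries, per the labels' protocols. Reads were aligned to mm10 with TopHat2 2.1.1 and counted per gene with featureCounts, per the submitters' processing notes; whether counting used strand is not given in the sources used here. The deposited values are raw read counts per gene, not normalized by the authors, and no step before them was repeated.

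Identifiers were paired with symbols, biotypes, positions and exon lengths of GENCODE M21 (GRCm38), which matched 45229 of 46078. Of these genes, 22577 had no count in any library. Pseudogenes that share the prefixes were not members, and their parents may share reads with them. Members, gene lists and tests were chosen with earlier results of these data known.

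Genes passing edgeR's filterByExpr were scaled by TMM and fitted over all 16 libraries with 1 term per group (edgeR 4.0.16, R 4.3.3, robust quasi-likelihood fit). The 6 comparisons of groups were tested 2-sided with glmQLFTest and a Benjamini-Hochberg threshold of 0.05. SE is the absolute log2 fold change divided by the square root of F. Replicates are the libraries of separately numbered animals, and counting depth limits the precision of the lowest genes. Per-kb levels use the principal transcript. The script was tested on simulated counts.

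Given in every library were the 4 members that rose most and the 4 that fell most in each comparison among those that passed, the 6 catalytic subunits, Psme1 to Psme4, Psmd5, Psmd9 and Psmd10, and members not tested. From each context list up to 4 genes with the smallest p were named in a comparison; Tap1 also stands as a neighbour of Psmb9.

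Alternatives were DESeq2 size factors, upper quartile factors, the DESeq2 1.42.0 Wald test, limma-voom (limma 3.58.1), no filter, 1 CPM in at least 4 libraries, removal of the 20 most abundant genes, 2 groups alone, removal of a loess trend (span 0.5) on exon length, each library left out, and Semaglutide 11 and Dicretin 14 left out together. The length of all exons in place of the principal transcript was added after seeing the data. Calls of context genes were traced over the same alternatives.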

Additional observations from a re-analysis of the deposited data

Results flagged for a closer look

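Among the members given with values in every library, 6 had a single library far from the other 3 of its group. Semaglutide 11 was high for Psmb5 at 161.3 CPM, Psmb8 at 61.42 CPM, Psmd8 at 197.4 CPM, Psme1 at 218.5 CPM and Psme2 at 249.7 CPM. Calorie restricted 52 was low for Psmd13 at 72.6 CPM. In each case the gap to the nearest library, divided by the range of the group, was over 0.829, the Dixon bound for 4 samples. Over all tested members and groups, 18 of 172 sets of 4 libraries had such a gap, over 17 different members, of which 14 came from Semaglutide 11, where chance gives about 1 in 20. The members share libraries, so these gaps are not independent of each other.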

How the results depend on the processing

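No paired analysis was possible because the groups share no replicate number. Counts of members passing stayed within 1.5 times in 241 of 312 combinations of result and alternative, where 0 in both fits also counted. Medians stayed within the spread of libraries in 154 of 156. That spread was wide, at 0.27 for Dicretin against saline, where the main median was 0.15. The Dicretin median against calorie restriction went from 0.09 to -0.04 without Dicretin 65 and still counted as within it. So neither tally shows that each count or median was stable. Of 3276 values of single members, 3111 kept direction and side of the threshold, 135 lost it, 29 gained it and 1 reversed. Without Semaglutide 11 and Dicretin 14 together, Dicretin against saline had 19 higher and 1 lower, and Dicretin against calorie restriction 14 higher and 5 lower. Dicretin against Semaglutide then had 12 higher and 1 lower, Semaglutide against saline 1 lower, and calorie restriction against saline 1 higher. Semaglutide against calorie restriction had 0 higher with a median of 0.0798. In the same setting Psmb5 in Dicretin against Semaglutide reversed to 0.44.

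With the exon length trend removed, Dicretin against saline had 9 higher (20.9%, against 24.8% of all genes). Calorie restriction against saline had 2 higher with a median of 0.14, Dicretin against calorie restriction 2 lower and Semaglutide against calorie restriction 1 lower. In the fit of 2 groups alone, calorie restriction against saline had 4 higher and 2 lower, where 2569 of 12395 genes were called in either direction. Dicretin against calorie restriction then had 2 higher and 2 lower, and Semaglutide against calorie restriction 0 higher and 0 lower. Dicretin against Semaglutide had 1 lower, where 2658 of 12188 genes were called in either direction. With no filter, calorie restriction against saline had 0 lower, Dicretin against calorie restriction 2 higher and 1 lower, and Semaglutide against calorie restriction 0 lower. With upper quartile factors, Dicretin against calorie restriction had 2 higher and Semaglutide against calorie restriction 1 lower. Limma-voom gave 1 lower for Dicretin against saline, and the DESeq2 Wald test 1 higher for calorie restriction against saline. Per kb of all exons together, the medians were 53.9 for the core, 38.2 for the 19S subunits and 7.91 CPM for the inducible subunits.

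With each library left out, Dicretin against saline had 2 to 11 higher and 1 to 3 lower (median 0.04 to 0.30), and Semaglutide against saline 0 in either direction (median 0.06 to 0.30). Calorie restriction against saline had 0 higher and 0 to 1 lower (median -0.06 to 0.07). Dicretin against calorie restriction had 1 to 6 higher and 2 to 5 lower (median -0.04 to 0.22). Semaglutide against calorie restriction had 0 to 1 higher and 0 to 2 lower (median 0.08 to 0.43). Dicretin against Semaglutide had 2 to 4 higher and 2 to 5 lower (median -0.31 to 0.03). The count of 11 (25.6%, against 17.9% of all genes) came without Dicretin 14, and the count of 2 without Saline 35. For most other counts of this section no share of all genes is given, so they show only how far the counts moved. Over all genes, the calls changed by over 1.5 times to 982 (DESeq2 Wald) and 849 (length trend) for Semaglutide against saline, against 539, to 1528 (DESeq2 Wald), 2569 (2 groups alone) and 1880 (both libraries out) for calorie restriction against saline, against 972, to 1292 (DESeq2 Wald) for Semaglutide against calorie restriction, against 790, and to 2658 (2 groups alone) for Dicretin against Semaglutide, against 4128. The cause of these changes was not tested. Low counts limit Psma8, Psmb11, Psmc3ip and Psme2b.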
